A study of Mus musculus with 2 samples.

Results

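The nuclei described here came from thalamic tissue and carried transcripts of Gad1 or Gad2 and of Six3 or Ubash3b. The mice had lost sensory and motor cortex on 1 side or were sham-operated. Some of the nuclei also carried markers of other cell classes or were called doublets, as given below. All were selected on their own counts. A nucleus was a member if it held at least 2 unique molecular identifiers (UMIs, each 1 captured transcript) of Gad1 and Gad2 together, none of Slc17a6, at least 2 of Six3 and Ubash3b together, and more of these than of Pax6 and Otof together. The rule found 587 of 16373 nuclei in the sham library and 953 of 21777 in the injury library, 1540 of 38150 in all. Both groups were female C57BL/6J mice aged 3 months, and the thalamus of the operated side was taken at day 21 after a sham operation or after cortical ablation injury (CAI). Each library held the pooled nuclei of 4 mice, sorted by their DNA stain, so each group was 1 sample, no difference between groups could be tested, and the mouse, the surgery and the library cannot be told apart. Intervals below are 95% intervals (Poisson for a level, Clopper-Pearson for a share, and the matching binomial interval for a ratio of 2 levels), and they cover counting error only. Levels are UMIs per 1000000 UMIs of the class (CPM), and differences are log2 ratios of injury over sham.

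The thalamic reticular nucleus is a sheet of inhibitory neurons that wraps the relay nuclei of the thalamus. Its cells receive branches of corticothalamic and thalamocortical axons and send GABAergic axons to relay neurons. They are known for burst firing through low-threshold T-type calcium channels coupled to SK potassium channels, for spindle rhythms in sleep, for parvalbumin, and for subgroups that differ in Spp1, Ecel1, Calb1 and Sst.

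The genes of the rule were read first, as a description and not as a result. Six3, a homeobox factor of the developing forebrain on chromosome 17 (85613608 to 85629302, GRCm38), stood at 89.9 CPM in the sham and 88.0 CPM in the injury library. Ubash3b, a phosphatase gene on chromosome 9 (41011098 to 41161697), stood at 756 and 794 CPM. Ubash3b carried most of the selection: Six3 was at 0 in 319 sham members and 522 injury members, while Ubash3b was at 0 in 3 and 18. Both genes were seen in 45.1% and 43.3% of members. The median member held 6 UMIs of the pair in each library, and the highest held 33 and 53. At the limit of the rule, 115 sham and 162 injury members held exactly 2 UMIs of the pair, and 278 and 445 GABAergic nuclei stayed outside with 1. A further 26 and 40 nuclei with 2 UMIs stayed outside because Pax6 and Otof reached as many.

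Markers that the rule did not use were also read against the label. Pvalb, the gene of parvalbumin (chromosome 15, 78191114 to 78206400), was at 59.6 CPM in sham and 59.3 CPM in injury members, against 4.36 and 1.21 CPM in the other GABAergic nuclei compared here, which were those with Pax6 and Otof and those with Prdm16, Ano2 and Cpa6. Meis2, a homeobox factor (chromosome 2, 115863064 to 116065839), was at 752 and 704 CPM against 291 and 598 CPM. The pool behind the latter values differed between libraries, with 17 sham and 308 injury nuclei with Prdm16, Ano2 and Cpa6, and nuclei with Pax6 and Otof alone were at 304 and 196 CPM. Gad1, the larger GABA-synthesizing enzyme (chromosome 2, 70553072 to 70602014) and part of the rule, was at 275 and 281 CPM. Isl1, a LIM homeobox factor, was at 75.2 and 73.2 CPM against 20.7 and 22.7 CPM. Ubash3b was not limited to neurons: oligodendrocyte nuclei held 361 and 401 CPM. How far oligodendrocyte RNA brought nuclei into the members was not tested.

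The members were not uniform. Graph clustering on both libraries together gave 15 clusters, here numbered by size. In 5 of them, clusters 2 to 6, Six3, Ubash3b and Pvalb each stood at 0.9 or more of their level over all members. These 5 are called the core below. This limit was set after the values were seen, and the core was 775 of the 1540 members (50.3%), with 289 sham and 486 injury nuclei. Its Six3 level was 143 and 133 CPM, its Ubash3b level 1095 and 1141 CPM and its Pvalb level 104 and 106 CPM. The 765 other members held 46.6 and 50.4 CPM of Six3, 477 and 501 CPM of Ubash3b, and 23.5 and 19.8 CPM of Pvalb. These levels follow from how the core was chosen and support nothing. The name reticular-like is used for the core, and the other members are called by the rule.

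**Figure D1:**
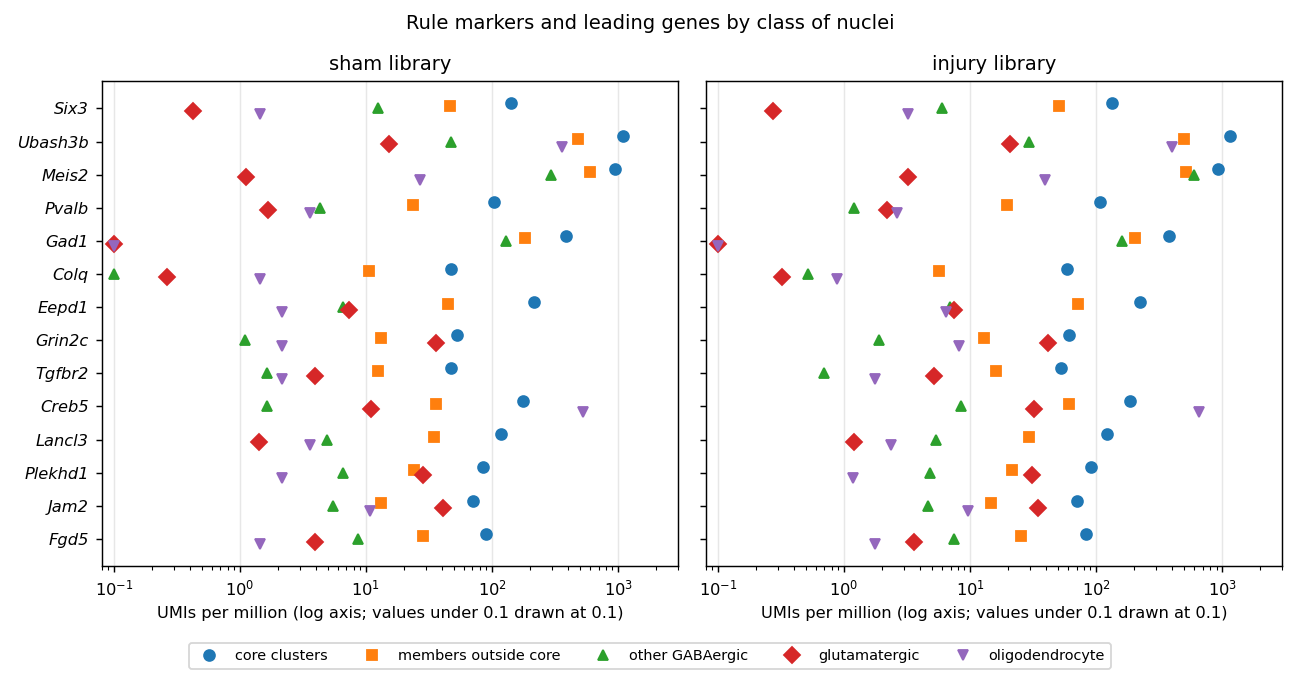
Level of rule markers and leading genes (rows) in CPM on a log axis, for the sham library (left) and the injury library (right), with 1 symbol per class of nuclei and values under 0.1 drawn at 0.1. The core (blue circles) lies to the right of the members outside it (orange squares) and of the other GABAergic nuclei (green triangles) for every gene shown, in both libraries, while Ubash3b and Creb5 are also high in oligodendrocyte nuclei.

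Several clusters outside the core had leading genes of other classes. Cluster 1 (137 sham and 182 injury nuclei) was led by Gata3, Ebf2 and Lhx1, which encode transcription factors, and had Pvalb at 4.09 CPM. Cluster 7 (38 and 41 nuclei) kept Ubash3b at 1228 CPM and Pvalb at 78.6 CPM and missed the core by Six3 at 33.2 CPM. Cluster 8 (32 and 43 nuclei) had Tcf4 at 1134 CPM, against 7.78 to 37.0 CPM in the core clusters, and cluster 12 (21 and 24 nuclei) had Cdh23 at 238 CPM. Cluster 9 (33 and 38 nuclei) carried the relay genes Ntng1 at 1080 CPM and Tcf7l2 at 262 CPM, and cluster 10 (14 and 39 nuclei) carried Mbp, a myelin gene, at 1060 CPM. In these last 2, 97.2% and 92.5% of nuclei were called doublets.

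Clusters 13 and 14 held 28 and 25 nuclei, all from the injury library, and 5.56% of its members. Cluster 13 had Ano2, a calcium-activated chloride channel gene, at 296 CPM and Gria1 at 2866 CPM, and cluster 14 had Maf at 309 CPM, Lhx6 at 59.2 CPM and Gria1 at 4087 CPM. Six3 was nearly absent in both, at 13.6 and 2.57 CPM. Doublet calls reached 75% and 40% of these nuclei. Over all members the calls marked 14.3% of sham and 19.7% of injury nuclei, near the 13.2% and 17.6% of all nuclei that the assumed rate sets, and in the core they marked 1 of 289 and 0 of 486.

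**Figure D2:**
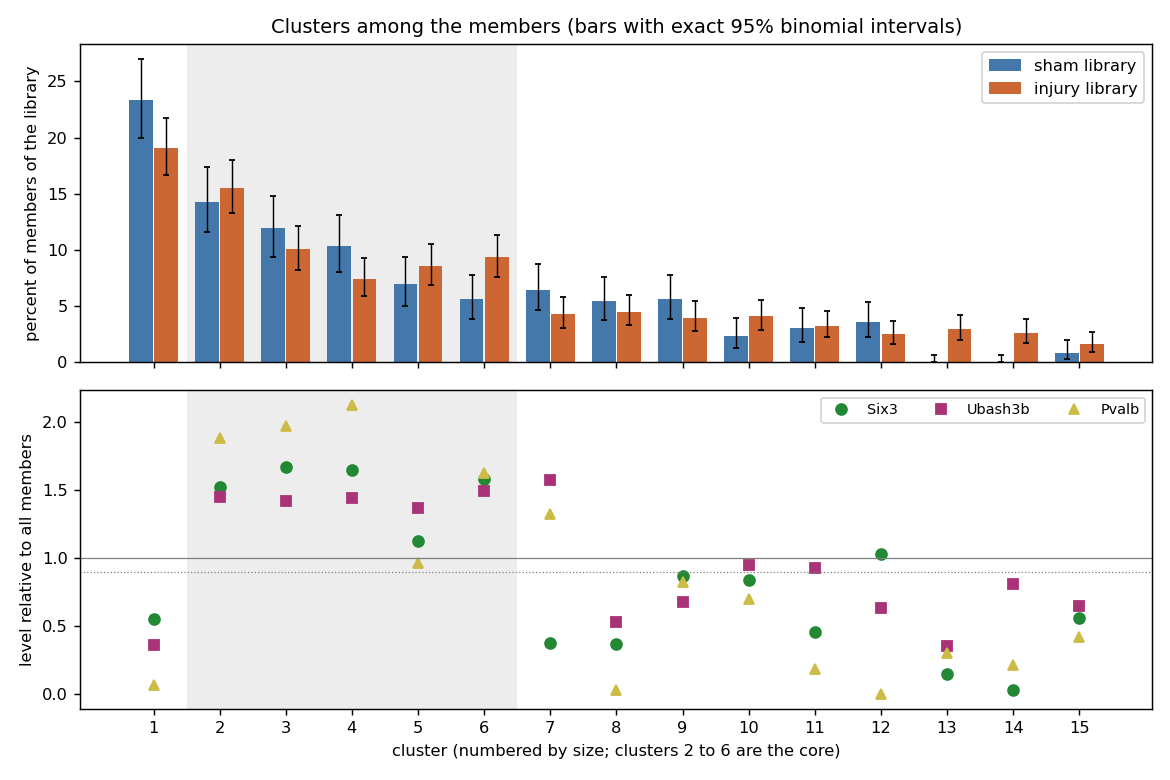
Top, the percent of each library's members in each cluster with exact 95% binomial intervals (sham blue, injury orange). Bottom, Six3, Ubash3b and Pvalb in each cluster of both libraries together, relative to their level over all members (line at 1, dotted line at 0.9). The shaded clusters 2 to 6 are the core, and clusters 13 and 14 have no sham nucleus.

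Members took 3.59% (3.31 to 3.88) of sham nuclei and 4.38% (4.11 to 4.66) of injury nuclei. Among GABAergic nuclei the order was the other way, 39.7% (37.2 to 42.2) in sham and 36.4% (34.6 to 38.3) in injury. The core was 1.77% (1.57 to 1.98) and 2.23% (2.04 to 2.44) of all nuclei, and 19.5% and 18.6% of GABAergic nuclei. Depth enters such shares, since the rule counts UMIs: the median member held 7890 UMIs in sham and 8474 in injury, and with every nucleus thinned to 3000 UMIs before the rule the shares of all nuclei were 1.77% and 2.47%. Among the thinned GABAergic nuclei they were 30.2% (27.1 to 33.5) and 31.4% (28.9 to 33.9), with the order of the libraries turned, so no order is read from the share of GABAergic nuclei. With members limited to fewer than 2 UMIs of glial markers, the shares of all nuclei were 1.15% in sham and 1.001% in injury, with sham higher. This glial limit is used again below. It counts UMIs, so depth enters it too, and its list holds Slc4a4, which the core carries. Shares of all nuclei also moved with every other class of nuclei that was sorted, and the part of those classes in the difference was not tested.

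Within the core, clusters 2 to 6 held 29.1%, 24.2%, 21.1%, 14.2% and 11.4% of sham nuclei, in that order, and 30.5%, 19.8%, 14.6%, 16.9% and 18.3% of injury nuclei. The intervals of cluster 6 were 7.99 to 15.7% in sham and 14.97 to 22.0% in injury, and they touched. These shares are descriptions, since some genes that differ between the libraries also define the clusters.

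The core clusters shared Six3, Ubash3b and Pvalb and parted by other genes. Cluster 2 was led by Pdgfrb at 33.0 CPM, Cntnap3, a contactin-associated adhesion gene, at 287 CPM, and Vcan, the proteoglycan versican, at 87.0 CPM, with Sst at 55.0 CPM. Cluster 3 was led by Gldn at 47.0 CPM, Hmcn1 at 517 CPM and Kcns3, a silent potassium channel subunit, at 143 CPM, and had the highest Meis2 level of the core, 1546 CPM. Cluster 4 had the most Sst, 70.0 CPM, and the least Meis2, 272 CPM. Cluster 5 was led by Tacr3, the neurokinin B receptor, at 116 CPM and by Angpt1 at 373 CPM, and had Ecel1 at 57.5 CPM and Pvalb at 57.5 CPM. Cluster 6 was led by Col24a1 at 112 CPM, Ntng2 at 102 CPM and Syt2, a fast calcium sensor of release, at 269 CPM.

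Cluster 6 and cluster 5 differed in level for several genes of physiology. Spp1, the gene of osteopontin, was at 29.0 CPM in cluster 6 and 1.28 CPM in cluster 5, and Ecel1 was at 1.45 and 57.5 CPM. The T-type channel gene Cacna1h was at 72.5 CPM in cluster 6 and 10.2 CPM in cluster 5, and Cacna1i was at 178 and 51.1 CPM. Cacna1g, the third T-type gene and the one known from relay neurons, ran the other way, at 6.53 and 75.3 CPM. These are levels over both libraries together, with no test, in clusters that were themselves drawn from these genes.

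Set against the other GABAergic nuclei, the genes with the largest surplus in the members, after a minimum of 100 UMIs in each library, included genes with no part in the rule. Colq, the collagen tail that anchors acetylcholinesterase, was at 27.2 CPM in sham and 30.1 CPM in injury members, with no UMI in the other GABAergic nuclei of the sham library and 0.517 CPM in those of the injury library. Eepd1 was at 121 and 140 CPM against 6.54 and 6.89 CPM. Grin2c, an NMDA receptor subunit gene, was at 30.9 and 34.8 CPM against 1.09 and 1.89 CPM, and was similar in glutamatergic nuclei at 35.8 and 41.3 CPM. Tgfbr2, a receptor of transforming growth factor beta, was at 28.1 and 32.7 CPM against 1.63 and 0.689 CPM. The other 11 of the 15 were Gm32067, Ubash3b, Creb5, Lancl3, Pvalb, Ramp3, Fign, Plekhd1, Six3, Jam2 and Fgd5. The surplus is over the GABAergic nuclei compared and not over every class. Ramp3 was at 24.0 and 22.5 CPM in members and 24.3 and 23.7 CPM in glutamatergic nuclei. Jam2 was at 39.1 and 40.3 CPM against 41.2 and 34.8 CPM there. Creb5 was at 98.9 and 118 CPM in members and 525 and 648 CPM in oligodendrocyte nuclei.

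The channel and receptor genes of the core differed in level from those of glutamatergic nuclei with Slc17a6, whose share of relay neurons was not measured. Cacna1i was at 87.6 CPM in the sham and 109 CPM in the injury core against 17.0 and 18.1 CPM in glutamatergic nuclei, and Cacna1h at 21.7 and 37.6 CPM against 4.64 and 5.66 CPM. Cacna1g was at 29.1 and 23.7 CPM against 144 and 159 CPM. Kcnn2, the SK channel gene, was at 911 and 947 CPM against 292 and 280 CPM.

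Among receptors, Grm3, a metabotropic glutamate receptor gene, was at 1413 and 1510 CPM in the core against 141 and 147 CPM in glutamatergic nuclei. Gabra3, the alpha3 subunit of the GABA-A receptor, was at 354 and 317 CPM against 126 and 130 CPM. Gria1, an AMPA receptor subunit gene, was at 66.8 and 66.6 CPM against 540 and 685 CPM. Erbb4, a neuregulin receptor, was at 2654 and 2239 CPM against 380 and 393 CPM. It was not particular to the core, with 2408 and 2188 CPM in oligodendrocyte nuclei and 1001 and 1097 CPM in the other GABAergic nuclei. These levels were set side by side with no test, since the rule and the clustering chose the nuclei.

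Injury and sham were then compared gene by gene. Over all members 12585 genes held at least 50 UMIs in the 2 libraries together, the median log2 ratio was -0.02, 566 genes (4.5%) were higher in the injury library by at least 0.5 on the log2 scale and 663 (5.27%) were lower. In the core 9834 genes were compared, the median was -0.01, 413 (4.2%) were higher and 593 (6.03%) were lower. These are counts by size, with no test behind them. Over all members they were 349 and 387 after thinning and 1287 and 1765 with free RNA, taken as a scaled pooled profile of each library, subtracted, so the shares of all genes given beside the lists hold for the counts as deposited only.

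The genes of GABAergic identity had close levels in the 2 libraries. Gad1 and Gad2 are part of the rule, so their levels, and in part the median of the list that holds them, were shaped by selection. They are given as a description. Gad1 differed by 0.03 (-0.06 to 0.13) over all members and by -0.05 (-0.17 to 0.07) in the core. Gad2, the second GABA-synthesizing enzyme, was at 437 and 412 CPM and differed by -0.09 (-0.16 to -0.01). Slc32a1, the vesicular GABA transporter, was at 25.4 and 23.1 CPM and differed by -0.14 (-0.46 to 0.19). Of 10 genes of GABA synthesis and transport, 9 were measured over all members and none differed by 0.5, with a median of -0.09. In the core the median was -0.05 with 1 of 9 genes lower by 0.5, beside 6.03% of all genes, and that gene was Slc6a11 at 11.3 and 7.42 CPM. Pvalb differed by -0.01 (-0.21 to 0.20).

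Of 16 genes known from the reticular nucleus, 15 were measured over all members, 1 was higher and 2 were lower by 0.5, beside 4.5% and 5.27% of all genes, and the median was -0.06. That median was 0.16 among members with fewer than 2 UMIs of glial markers, and -0.15 both with free RNA subtracted and with Six3 and Ubash3b each required, so no direction is read from it. Transcription factors of forebrain inhibitory neurons had a median of -0.03 over 20 measured genes, with 2 higher and 3 lower by 0.5. Esrrg, an orphan nuclear receptor, was at 1155 and 1226 CPM and Isl1 at 75.2 and 73.2 CPM. Lhx1 was at 11.1 and 4.93 CPM, a difference of -1.18 (-1.77 to -0.59), and lay largely outside the core, where 7 and 6 UMIs were counted. Foxp2 was at 76.0 and 51.4 CPM over all members, a difference of -0.56 (-0.76 to -0.37), and at 6.51 and 10.3 CPM in the core, 0.66 (-0.21 to 1.62). Both genes are seen mainly in the members outside the core.

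The 12 genes highest in the injury library over all members, ranked by the bound of the interval nearest to 0, did not describe the core. Ano2 had 2 UMIs in sham members and 161 in injury members, 0.391 and 17.6 CPM, a difference of 5.49 (3.62 to 8.55), and 81.4% of the injury UMIs lay in cluster 13. In the core Ano2 had 2 UMIs in each library, and among members with fewer than 2 UMIs of glial markers its difference was -0.19. Maf, a transcription factor of interneurons, had 20 and 168 UMIs, a difference of 2.23 (1.56 to 2.98), and 71.4% of the injury UMIs lay in cluster 14. Slc1a3, an astrocyte glutamate transporter, had 6 and 65 UMIs, with the most in cluster 10, and 0 and 4 in the core.

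Of these 12 genes (the others were Myo5b, 3110039M20Rik, Igsf11, Egfr, D130009I18Rik, Gm38505, Eya4, Ptk2b and Ror2), 10 had more of their injury UMIs in cluster 13, 14 or 15 than in any other cluster. Cluster 15 held 5 sham and 16 injury nuclei, of which 85.7% were called doublets. The core held between 0 and 20.6% of the injury UMIs of these 12 genes, 9 had 10 or fewer UMIs in the core of both libraries together, and none had a core interval above 0. Gm38505 shares its locus with Sox2ot on the other strand, and whether counting used the strand is not given in the sources used here. Gria1 followed the same course: it was at 335 and 674 CPM over all members, a difference of 1.01 (0.93 to 1.09), and at 66.8 and 66.6 CPM in the core. The interval in the core was -0.29 to 0.29.

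**Figure D3:**
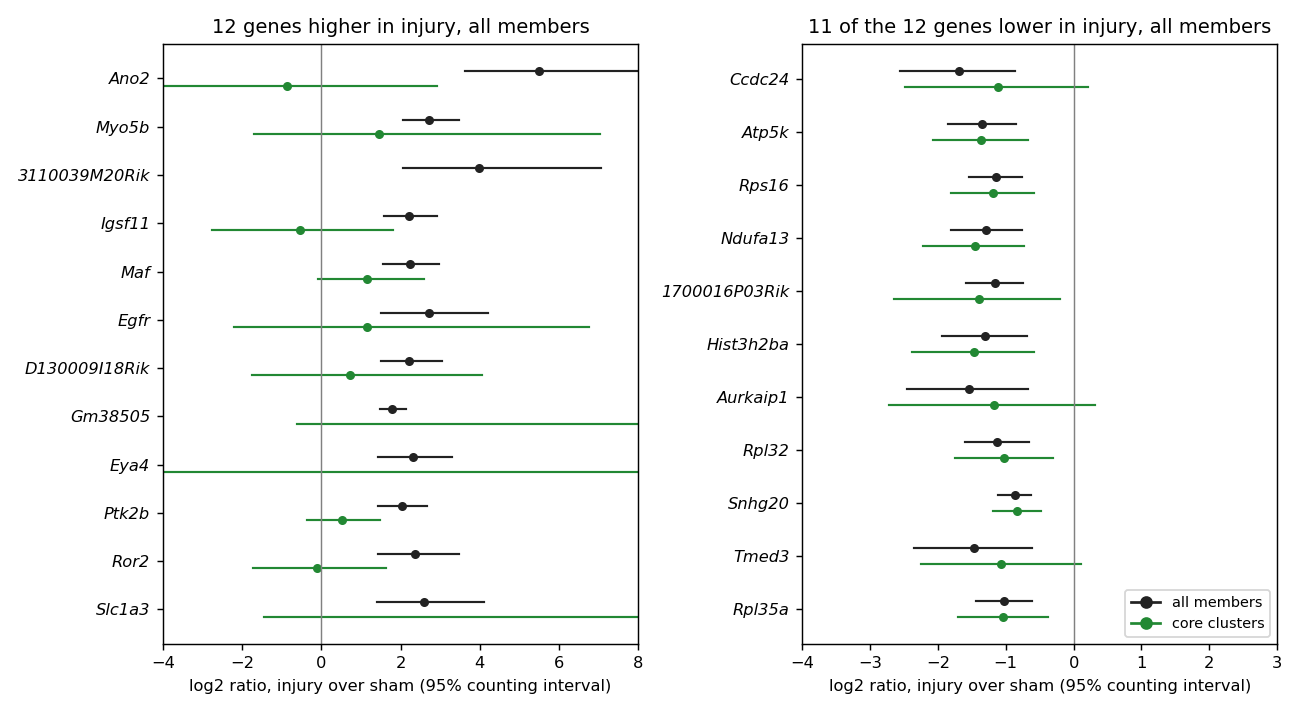
Log2 ratio of injury over sham with its 95% counting interval for the 12 genes highest (left) and 11 of the 12 lowest (right) in the injury library over all members (black), with the same genes in the core (green). Intervals that run past the axis end at its edge, and 3110039M20Rik has no UMI in the core. None of the genes on the left has a core interval above 0, and those on the right are lower in both sets.

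The genes highest in the injury core by the same ranking, a list added after the values were seen, were Grin2a, Thrb, AC140073.1, Unc5d, Pdzrn4, Cacng4, Fndc3b, Grik4, Galnt16, Gm12082, Cyp11a1 and Cmss1. Grin2a, an NMDA receptor subunit gene, was at 47.3 CPM in the sham and 127 CPM in the injury core, a difference of 1.43 (1.13 to 1.74). It was also higher in injury outside the core, at 315 and 558 CPM in the other members. Nuclei with Pax6 and Otof were at 414 and 482 CPM and glutamatergic nuclei at 814 and 1043 CPM. Within the core its highest level was in cluster 6, at 158 and 421 CPM, while cluster 2 was at 49.1 and 63.2 CPM and cluster 3 at 13.8 and 13.7 CPM. The mean of the log2 ratios of the 5 clusters was 0.53, beside 1.43 for the summed core, and cluster 6 was 11.4% of the sham and 18.3% of the injury core. Pdzrn4 went the same way, at 34.8 and 184 CPM in cluster 6 and 17.8 and 23.5 CPM in cluster 2.

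Other genes of this list differed in more than 1 cluster. Thrb, a thyroid hormone receptor gene, was at 46.0 and 105 CPM in the core, 1.19 (0.88 to 1.51), with an interval above 0 in 3 of 5 clusters. Unc5d, a netrin receptor gene of axon guidance, was at 327 and 614 CPM, 0.91 (0.79 to 1.03), also above 0 in 3 of 5, and ran from 419 to 1156 CPM in cluster 2 but from 71.0 to 47.8 CPM in cluster 4. Fndc3b was at 133 and 232 CPM, 0.80 (0.62 to 0.99), and was higher in 5 of 5 clusters with 3 intervals above 0.

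Cmss1 differed in every core cluster. It was at 343 and 536 CPM in the core, 0.64 (0.52 to 0.76), and its 5 clusters ran from 327 to 375 CPM in sham and from 515 to 552 CPM in injury, with all 5 intervals above 0. Cluster 1 was at 286 and 473 CPM, glutamatergic nuclei at 244 and 437 CPM and oligodendrocyte nuclei at 486 and 906 CPM, all of them higher in the injury library. The gene spans Filip1l on the other strand, which may share its reads if strand was not used.

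Sst, the gene of somatostatin, was lower in the injury library. Over all members it had 144 UMIs in sham and 176 in injury, 28.1 and 19.3 CPM, a difference of -0.55 (-0.87 to -0.22). In the core it was at 52.5 and 32.3 CPM, -0.70 (-1.06 to -0.33). All 5 core clusters had a lower level in injury: cluster 2 was at 62.5 and 51.0 CPM, cluster 3 at 22.4 and 13.7 CPM, cluster 4 at 102 and 47.8 CPM, cluster 5 at 46.8 and 28.5 CPM and cluster 6 at 29.5 and 16.9 CPM. Only in cluster 4 did the interval stay below 0, at -1.09 (-1.82 to -0.38). Sst is 1 of 15 neuropeptide genes on the list, of which 3 were measured over all members. All 3 ratios were below 0, with a median of -0.31, and Pnoc, the gene of prepronociceptin, was nearly level at 16.8 and 16.5 CPM.

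Erbb4 was also lower in the core and not over all members. The core held 2654 CPM in sham and 2239 CPM in injury, -0.25 (-0.29 to -0.20), with a lower level in 5 of 5 clusters and 4 intervals below 0. Over all members the difference was 0.09 (0.06 to 0.13), and members outside the core were at 1504 and 2087 CPM. Lrrtm4, a postsynaptic adhesion gene, was at 1825 and 1367 CPM in the core, -0.42 (-0.48 to -0.36), with 4 of 5 intervals below 0. The 20 adhesion genes measured had a median of -0.07 over all members and 0.02 in the core.

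**Figure D4:**
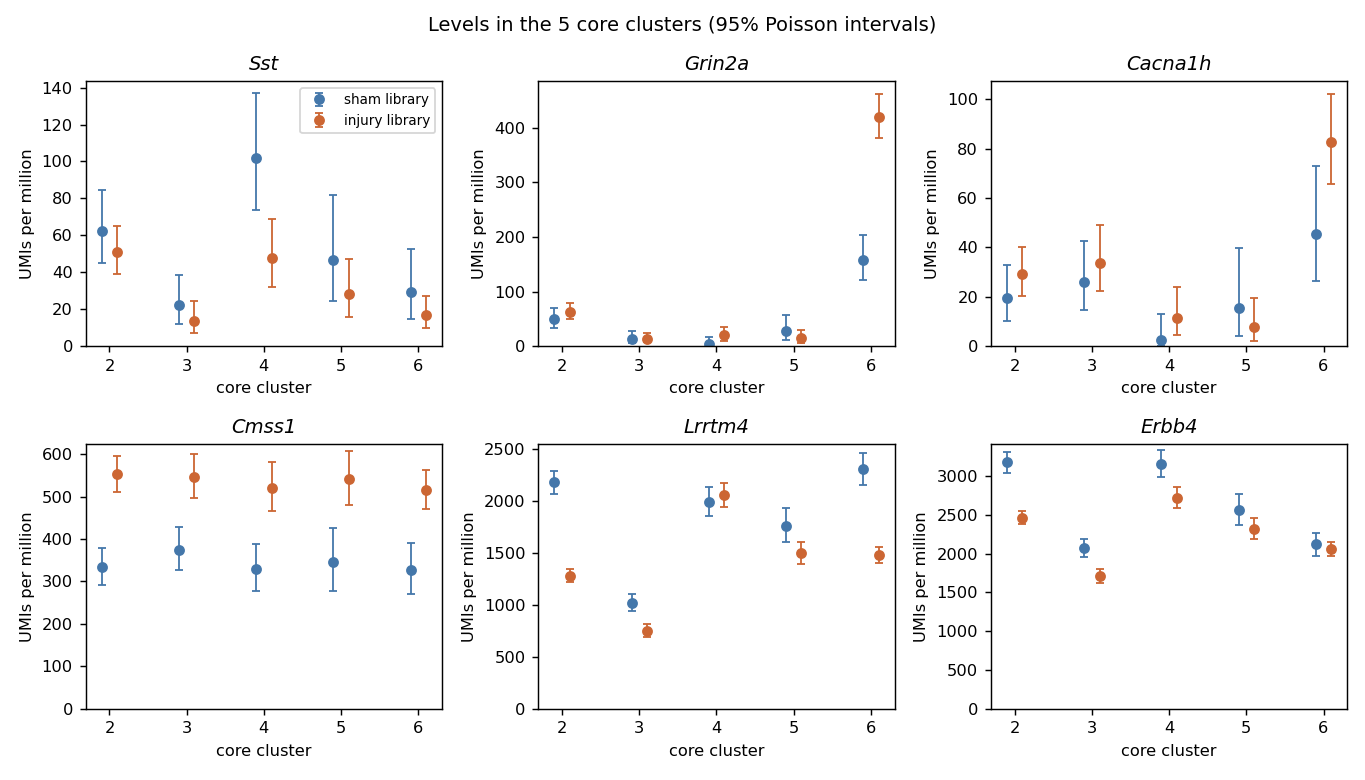
CPM of 6 genes in the 5 core clusters for the sham (blue) and injury (orange) library, with 95% Poisson intervals and axes from 0. Sst and Erbb4 are lower in the injury library in every cluster, Cmss1 is higher in every cluster, Lrrtm4 is lower in all but cluster 4, and Grin2a and Cacna1h are highest in cluster 6 of the injury library.

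Genes of excitability had medians near 0. The list of T-type, SK and HCN channels had a median of 0.13 over 9 measured genes, with 1 higher by 0.5 and none lower, beside 4.5% and 5.27% of all genes. In the core 2 of 8 were higher and 1 lower, beside 4.2% and 6.03%. The gene higher over all members was Cacna1h, with 116 and 295 UMIs, 22.7 and 32.3 CPM, a difference of 0.51 (0.20 to 0.83). In the core it was 0.79 (0.33 to 1.28), higher in 4 of 5 clusters with 1 interval above 0, in cluster 6 at 45.6 and 82.6 CPM. Among members with fewer than 2 UMIs of glial markers the difference was -0.063, while in the core of those members it was 1.01. Cacna1i was 0.31 (0.07 to 0.56) in the core and Kcnn2 was 0.06 (-0.02 to 0.13).

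The 14 fast-spiking potassium channel genes had a median of -0.02 over all members, with Kcnab1 and Kcns2 higher and Kcns1 lower by 0.5, beside 4.5% of all genes higher and 5.27% lower. Kcnc1, the Kv3.1 gene, was at 206 and 202 CPM, and Kcnb2 and Kcnc2 were -0.23 each in the core. Kcnab1 differed by 0.17 (-0.15 to 0.51) in the core and was at 132 and 211 CPM in the members outside it. The 9 sodium channel genes had a median of -0.15 over all members and 8 had a median of -0.13 in the core, and none differed by 0.5 in the core. Over all members Scn4b, with 17 and 44 UMIs, was higher by 0.5. Scn3a was at 504 and 444 CPM, -0.18 (-0.26 to -0.11), and Scn1a at 533 and 481 CPM, -0.15 (-0.22 to -0.08).

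The 12 GABA-A subunit genes had a median of 0.04 over all members, with Gabrg3 at 1748 and 1794 CPM. The median of this list in the core was 0.50 with free RNA subtracted. In the core none of 11 measured genes of this list was higher by 0.5. Over all members the 1 that was higher by 0.5 was Gabrd, the delta subunit, with 28 and 74 UMIs. Ionotropic glutamate receptor genes had a median of 0.02 over 17 genes, and the 2 that were higher by 0.5 were Gria1 and Grin2a, beside 4.5% of all genes. Metabotropic receptors had a median of 0.09 over 6 genes, and Grm3 was 0.06 (0.01 to 0.12). Grm5 was 0.11 (0.07 to 0.15) over all members and -0.22 (-0.29 to -0.14) in the core, and Grm7 was 0.18 and 0.38 in the same order. The 20 genes of presynaptic release had a median of -0.02, with Syt1 at 2233 and 2426 CPM.

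Of 22 neuromodulator receptor genes, 14 were measured, with a median of 0.00. Chrm2, the M2 muscarinic receptor through which acetylcholine inhibits these cells, was at 448 and 430 CPM, -0.06 (-0.13 to 0.01). Htr2c, a serotonin receptor gene, was at 412 and 303 CPM, -0.44 (-0.52 to -0.36), over all members and at 135 and 151 CPM in the core. Adra1d, an alpha-1 adrenergic receptor gene, had 19 and 68 UMIs, 1.003 (0.25 to 1.82), and 0.73 (-0.09 to 1.61) in the core. Perineuronal net and matrix genes had a median of 0.07 over 9 genes of all members. Tnr, the gene of tenascin-R, was at 363 and 466 CPM, 0.36 (0.28 to 0.44). Hapln1, a link protein gene, was at 6.64 and 11.8 CPM, 0.83 (0.26 to 1.43). In the core none of 8 matrix genes was higher by 0.5 and 1 was lower, beside 4.2% and 6.03% of all genes. Outside the core 2 of 7 were higher and none lower, beside 660 and 685 of 11121 genes.

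Immediate early genes, which neurons switch on with activity, were thinly counted. Of 20, 11 were measured over all members, 3 were lower and none higher by 0.5, beside 5.27% and 4.5% of all genes, and the median was -0.40. In the core 5 were measured, 1 was lower by 0.5, beside 6.03% of all genes, and the median was -0.32, and 5 outside the core had a median of 0.11. The core median was -0.032 where Six3 and Ubash3b were each required, an alternative chosen after the data were seen. Npas4 had 51 and 47 UMIs, 9.97 and 5.14 CPM, a difference of -0.95 (-1.56 to -0.35). Its difference turned to 0.51 among members with fewer than 2 UMIs of glial markers, and in the core it was -0.55 (-1.43 to 0.35). Under that glial limit too few of these genes reached the minimum of 50 UMIs to give a median, so no direction is read from the turn. Bdnf had 38 and 31 UMIs, -1.13 (-1.86 to -0.41). Fos lay under the minimum of 50 UMIs and is named here after its values were seen, with 28 UMIs in sham and 8 in injury members, 5.47 and 0.876 CPM, and 12 and 2 in the core. Homer1 was level at 112 and 113 CPM and Nr4a1 at 16.0 and 15.7 CPM. Glutamatergic nuclei had a median of -0.46 over 18 of these genes, and their Fos level was 5.60 and 1.55 CPM.

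Ribosomal protein genes were the list farthest below 0 over all members among those with more than 3 measured genes. Of 84 genes, 80 were measured over all members. In the injury library 44 of the 80 were lower by 0.5 and none higher, beside the 5.27% of all genes given above, and their median was -0.54. In 76 of the 80 the ratio was below 0, and in 55 the whole counting interval was, against 11.4% of all genes. In the core 44 of 74 were lower by 0.5, beside 6.03% of all genes, with a median of -0.57. Among core nuclei with fewer than 2 UMIs of glial markers the median was -1.09. In the core 55.0% of sham and 58.4% of injury nuclei held at least 2 UMIs of astrocyte markers. That limit left fewer nuclei and UMIs, so fewer genes could reach the minimum, and no larger difference is read from the -1.09. Together the ribosomal protein genes held 8793 UMIs in sham and 10834 in injury members, 1718 and 1186 CPM.

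Rps16, a protein of the small subunit, had 128 and 103 UMIs and was at 25.0 and 11.3 CPM, -1.15 (-1.54 to -0.76). Rpl6 was nearly level, at 53.7 and 48.2 CPM, -0.16 (-0.38 to 0.06). Ribosomal protein genes have many near-identical pseudogenes, so reads may have been split among copies.

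The same list was lower in every other class of nuclei examined. Summed, it was at 1711 and 1235 CPM in the other GABAergic nuclei, 1392 and 1023 CPM in glutamatergic nuclei and 3137 and 2292 CPM in oligodendrocyte nuclei, with medians of -0.51, -0.45 and -0.50. The members thus shared this difference with neurons and glia of the same libraries, and whether it belongs to the tissue, to cytoplasmic RNA carried with the nuclei or to the library cannot be told apart. Translation factors were closer to 0, with a median of -0.11 over 27 genes and 2 lower by 0.5, near the 5.27% of all genes. Of the 2, Eif5a was at 11.3 and 6.35 CPM, -0.84 (-1.39 to -0.29).

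**Figure D5:**
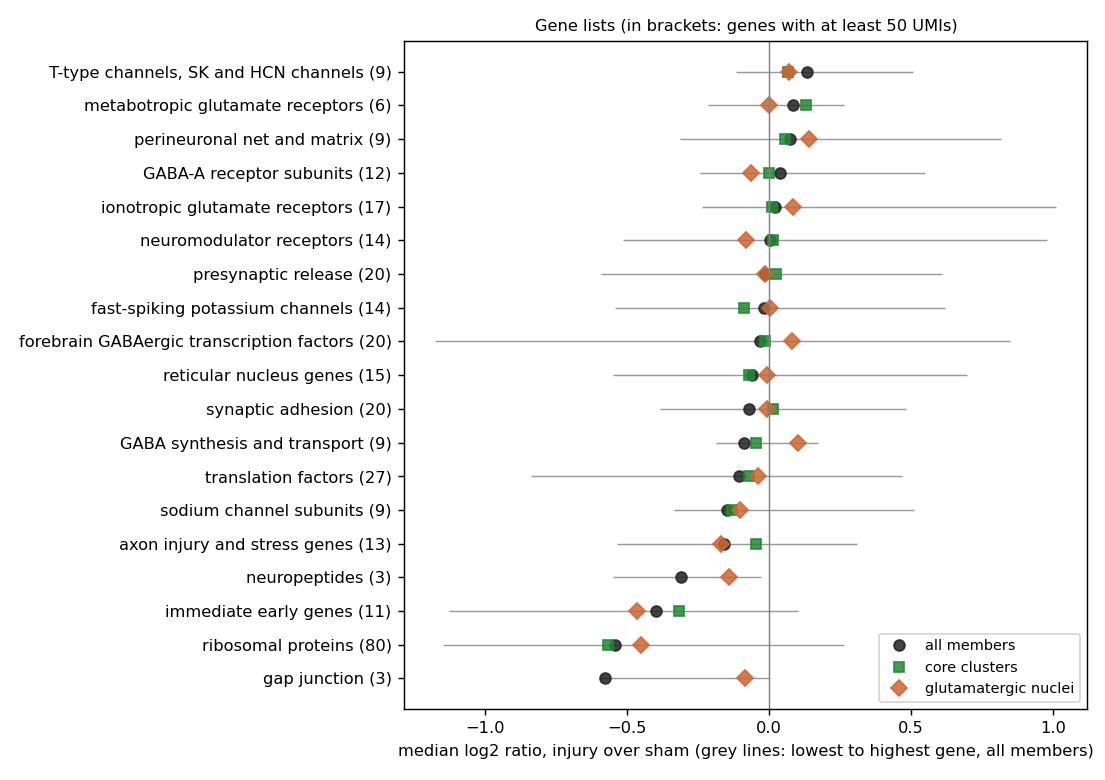
Median log2 ratio of injury over sham for 19 gene lists in all members (black circles), the core (green squares, where at least 3 genes were measured) and glutamatergic nuclei (orange diamonds), with the lowest and highest gene of each list over all members (grey lines). Ribosomal proteins, at -0.54, -0.57 and -0.45, and immediate early genes, at -0.40, -0.32 and -0.46, lie below 0 in all 3 sets.

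The 12 genes lowest in the injury library over all members held ribosomal protein genes, and Atp5k and Ndufa13 of mitochondrial respiration. No list of respiration genes was set, so nothing is read about them as a group. Atp5k, a subunit of mitochondrial ATP synthase, had 84 and 59 UMIs, 16.4 and 6.46 CPM, -1.35 (-1.85 to -0.85). Ndufa13, of respiratory complex I, was at 14.7 and 6.02 CPM, -1.28 (-1.81 to -0.76). 1700016P03Rik, whose span holds Mir132 and Mir212, was at 21.3 and 9.52 CPM, -1.16 (-1.58 to -0.74). Among the others were Ccdc24, Hist3h2ba, Aurkaip1, Rpl32, Snhg20, Tmed3, Rpl35a and Rps16. All 12 were lower by 0.5 or more in the core too, and 9 of the 12 core intervals lay below 0. Glutamatergic nuclei were lower for these genes as well, with Atp5k at 8.72 and 5.92 CPM and 1700016P03Rik at 15.4 and 7.25 CPM.

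The genes lowest in the injury core by the same ranking included Hspg2, the heparan sulfate proteoglycan perlecan, with 36 and 25 UMIs, 15.6 and 5.99 CPM, -1.38 (-2.18 to -0.61). Hspg2 was close to absent in glutamatergic nuclei, at 0.318 and 0.496 CPM. Stub1, a chaperone-linked ubiquitin ligase gene, was at 34.3 and 15.3 CPM, -1.16 (-1.66 to -0.67), and Pcsk1n, which encodes a secretory granule protein, was at 52.9 and 27.1 CPM, -0.97 (-1.35 to -0.59). Glutamatergic nuclei were lower in injury for both, with Stub1 at 24.3 and 17.5 CPM and Pcsk1n at 31.2 and 20.6 CPM. Genes of axon injury and stress had a median of -0.16 over 13 genes and of -0.05 over 11 in the core. Gap43, a growth cone gene, was at 130 and 116 CPM, and Sox11 at 41.8 and 28.9 CPM, -0.53 (-0.80 to -0.27). Atf3 and Sprr1a, known from injured axons, had 1 UMI each in both libraries together. Gap junction genes gave 3 measured genes of 5, with a median of -0.58 and 2 lower by 0.5, beside 5.27% of all genes, and Gjd2, the connexin of electrical synapses in this nucleus, had 9 and 18 UMIs, under the minimum.

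RNA of other cell types was read beside these values. Oligodendrocyte markers (8 genes, none at 0) summed to 175 CPM in sham and 294 CPM in injury members, to 49.9 and 67.8 CPM in the core, and to 83.7 and 149 CPM in glutamatergic nuclei. Astrocyte markers (7 genes) summed to 227 and 288 CPM, led by Slc4a4, which cluster 4 of the core also carried at 416 CPM, and to 343 and 343 CPM in the core, where Slc1a3, Aqp4 and Gfap were at 0 in sham. Gfap had 0 UMIs in sham and 28 in injury members, at least 5.23-fold higher against a floor of 3 UMIs. Microglia markers (7 genes) were at 86.8 and 93.9 CPM, endothelial and mural markers (6) at 9.58 and 10.6 CPM, and oligodendrocyte precursor markers (5) at 32.4 and 36.3 CPM. P2ry12 gave 293 of 444 sham and 509 of 858 injury UMIs of the microglia list. Glutamatergic nuclei held 110 and 119 CPM of the microglia list and 523 and 531 CPM of the astrocyte list. Pdgfrb gave 30 of 49 sham and 64 of 97 injury UMIs of the mural list. Vcan gave 141 of 166 and 317 of 332 UMIs of the precursor list. Both genes lead core cluster 2, so these 2 sums are not read as RNA of other cells. Among neuronal lists, striatal markers (10 genes) were at 35.0 and 35.7 CPM and at 6.94 and 8.62 CPM in the core, relay markers (8, Slc17a6 at 0 by the rule) at 456 and 406 CPM, pallidal and hypothalamic markers (10) at 62.1 and 73.0 CPM, cortical excitatory markers (8) at 79.9 and 96.4 CPM and cortical interneuron markers (6) at 590 and 582 CPM. Adarb2 alone gave 2778 of the 3019 sham and 4758 of the 5314 injury UMIs of the interneuron list. That list was at 80.7 and 82.1 CPM in the core and at 1898 and 1944 CPM in glutamatergic nuclei. Agrp gave 263 of 318 sham and 527 of 667 injury UMIs of the pallidal and hypothalamic list. Glutamatergic nuclei held 49.0 and 52.0 CPM of that pallidal and hypothalamic list. The part of this RNA in the gene differences was not tested.

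Shares of nuclei with a transcript were taken for the genes known from subgroups of the reticular nucleus. Pvalb was one of the genes that chose the core, so its share there is a description. It was seen in 50.2% (44.3 to 56.1) of sham and 54.9% (50.4 to 59.4) of injury core nuclei, against 1.79% and 2.60% of glutamatergic nuclei, which should lack it, at median depths of 7068 and 7723 against 10978 and 11895 UMIs. Thinned to 3000 UMIs the core shares were 29.0% and 28.1%. Sst was seen in 30.1% (24.9 to 35.8) and 22.0% (18.4 to 26.0) of core nuclei, against 0.905% and 1.17% of glutamatergic nuclei, and in 14.3% (10.4 to 19.0) and 11.9% (9.13 to 15.2) after thinning. The order of the libraries was that of the Sst level, and the intervals overlapped at both depths.

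Ecel1, the gene of an endopeptidase-like enzyme, was seen in 15.6% and 14.6% of core nuclei against 1.21% and 1.81% of glutamatergic nuclei. Spp1 was seen in 4.15% (2.16 to 7.14) and 5.97% (4.03 to 8.46), against 0.474% and 1.45%, and after thinning in 2.15% and 1.49%, with the order of the libraries turned. Npy was seen in 6.23% (3.73 to 9.67) and 3.50% (2.05 to 5.54), against 0.323% and 0.363% of glutamatergic nuclei, and after thinning in 2.87% and 1.49%. Calb1 was seen in 7.27% and 8.23% of core nuclei, below the 42.5% in glutamatergic nuclei of each library. Glutamatergic nuclei express this gene and so give no background for it, and oligodendrocyte nuclei held it in 0.945% and 1.32% at median depths of 1670 and 1823 UMIs.

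Pairs of these genes were counted in the same nuclei. None of 12 sham core nuclei with Spp1 had Ecel1, which allows a share of up to 26.5%, and 2 of 29 injury core nuclei did (6.90%, 0.846 to 22.8), beside 16.2% and 15.1% of core nuclei without Spp1. The intervals overlapped, and at these counts of Spp1 no difference was detectable. Ecel1 was seen in 9.74% (6.46 to 13.9) of injury core nuclei with Pvalb and in 20.5% (15.4 to 26.5) of those without, and in sham in 12.4% (7.53 to 18.9) and 18.8% (12.7 to 26.1). Sst was spread over both, in 31.0% and 29.2% of sham core nuclei with and without Pvalb and in 24.0% and 19.6% of injury core nuclei.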

How the data were processed

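The deposited tables hold raw UMI counts per gene and nucleus, made by the authors with Cell Ranger 6.0.2 on GRCm38 from droplet 3′ libraries, and the submitters' notes also name Seurat 4.0. No normalization was applied to the counts. Gene names and positions are those of GENCODE on GRCm38. Whether intronic reads or strand were used is not given in the sources used here. Nuclei with 200 to 7500 genes and at most 2% mitochondrial UMIs were kept. The libraries held 137411540 and 178972911 UMIs in kept nuclei, and the members 5117033 in sham and 9135753 in injury. The libraries shared 101 barcodes, none of them a member in both, and 2 sham and 6 injury members had a barcode also present in the other library.

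UMIs were summed per library and class. Counts of genes by size and list medians add 0.5 UMIs to both counts, and the ratios and intervals of single genes are those of the plain counts. Genes with at least 50 UMIs in both libraries together were compared, and 0.5 on the log2 scale was the size named. Members were clustered by Leiden (leidenalg 0.10.2) on 20 principal components of 2000 variable genes. Doublets were kept, and were called on simulated pairs at 0.8% per 1000 nuclei for an alternative. Named genes are the markers, the 12 highest and 12 lowest in injury, the 15 leading over other GABAergic nuclei, and of each list the 2 with most UMIs and the 2 with the largest difference. The 12 highest and lowest and the 15 leading genes of the core were added after seeing the data, as were all other genes named, such as cluster leaders, Cacna1g, Cacna1i, Gabra3 and Grm3. Some genes are not reported here. The members and lists were chosen with earlier results of these data known. The ratio and interval code was tested on simulated data. Python 3.11.15, scipy 1.17.1 and, for TMM factors, edgeR 4.0.16 were used. Alternatives were other limits of the rule, depth, scaling, free RNA, doublets and left-out clusters.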

Additional observations from a re-analysis of the deposited data

How the results depend on the processing

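No paired analysis was possible because sham and injury were 1 pooled library apiece, and none can be left out. The share of nuclei that were members moved with the rule, and stayed higher in injury in all but 1 case. It was 4.65% in sham and 5.73% in injury with at least 1 UMI of Six3 and Ubash3b, 2.35% and 3.14% with at least 4, 2.46% and 2.99% with at least 4 of Gad1 and Gad2, and 1.77% and 2.47% after thinning. It was 4.83% in injury with up to 1 UMI of Slc17a6 and 4.05% in injury with few striatal transcripts. With both Six3 and Ubash3b required, a choice made after seeing the data, it was 1.62% and 1.90%. With fewer than 2 UMIs of glial markers it was 1.15% and 1.001%, with sham higher; that list holds Slc4a4, which the core carries.

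Genes higher and lower by 0.5 over all members numbered 349 and 387 after thinning, 1287 and 1765 with free RNA subtracted, 145 and 171 with at least 200 UMIs, and 4733 and 4048 with no minimum. In the core they numbered 76 and 74 with at least 200 UMIs and 4358 and 4064 with no minimum, 666 were higher with free RNA subtracted, and 262 were lower under the glial limit. List medians that moved were, under the glial limit, 0.16 for reticular nucleus genes, and in the core -0.27 for potassium channels and -1.09 for ribosomal proteins. That limit left fewer nuclei and UMIs, so fewer genes could reach the minimum. After thinning GABA synthesis was at -0.16. With free RNA subtracted, reticular nucleus genes were at -0.15, GABA synthesis at -0.15, transcription factors at -0.19, gap junction genes at -0.88 and GABA-A subunits of the core at 0.50. Ribosomal proteins of the core were at -0.46 with at least 200 UMIs. With both genes required, reticular nucleus genes were at -0.15 and immediate early genes of the core at -0.032. The other 604 list medians stayed within the order-statistic interval of the median of their list.

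Single genes turned in direction 9 times. Under the glial limit Ano2 was at -0.19, Cacna1h at -0.063 and Npas4 at 0.51, and after thinning Ror2 was at -2.39. In the core alone, also chosen after seeing the data, Ano2 was at -0.86, Igsf11 at -0.54, Ror2 at -0.12, Foxp2 at 0.66 and Gria1 at -0.0048. The cause was not tested. With members thinned to 3000 UMIs, the shares in sham and injury were 16.5% and 17.0% for Pvalb, 8.06% and 7.22% for Sst, 8.58% and 8.19% for Ecel1, 1.05% and 0.970% for Spp1, 4.38% and 4.53% for Calb1 and 1.58% and 1.29% for Npy. The TMM factor would shift all log2 ratios by -0.02 over all members and -0.04 in the core. Immediate early genes gave no median under the glial limit, after thinning or with at least 200 UMIs, since fewer than 3 genes remained. Pooled mice leave the spread between animals unknown, and depth limits Fos, Spp1 and Npy.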
